A study of Homo sapiens with 6 samples.

Results

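The genes described here are 46 human genes of DNA replication: the proteins that license replication origins, the helicase, the clamp and its loader, the polymerases, the strand-processing enzymes and the regulators of the step from G1 to S phase. They were found by symbol among the 60107 gene IDs of the deposited table of raw counts, and all 46 passed the filter on low counts that left 22613 genes for testing. The counts come from H9, an established human embryonic stem cell line, driven toward nephron progenitor cells, which form the filtering units of the kidney, and collected at the end of day 9. In 3 libraries the cells were in complete medium, and in 3 the medium had lacked glutamine, an amino acid that feeds nucleotide synthesis, since the differentiation began. All 6 libraries share the line, the protocol and the day of collection, and nothing in the labels says whether the 3 libraries of a group came from separate cultures, so p-values measure the spread between libraries, which may be technical.

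Before S phase, the origin recognition complex (ORC), CDC6 and CDT1 load rings of MCM2 to MCM7 onto DNA, and geminin (GMNN) blocks further loading once S phase has begun. CDC45, the GINS complex and MCM10 turn the loaded rings into moving helicases, after which primase, the polymerases, the sliding clamp PCNA and its loader RFC copy the strands. Cyclin E with CDK2 and the E2F transcription factors drive entry into S phase, and E2F factors act through promoter elements found in many replication genes. In bulk RNA a larger share of cells in S phase and more RNA per cell cannot be told apart.

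Each library held 78220507 to 84746566 counts. The members were well covered: the smallest count of any of them in a library was 406 and the largest 43456. Replicate 1 with glutamine stands apart from the other libraries of its group, and calls were therefore also made without it. Each library was left out in turn, and this fit is given gene by gene because of its values. Leaving out a library that differs from its group narrows the spread within that group. The p-values of this fit can therefore be too small and are descriptive. The labelled cell type was checked against marker lists. Nephron progenitor and intermediate mesoderm markers, 11 of 11 detected above the filter, summed to 968 to 1651 CPM (counts per 1000000, on TMM-scaled library sizes) with glutamine and to 1530 to 2057 CPM without. Pluripotency markers, 4 of 7 above the filter, summed to 140 to 204 CPM with and 233 to 296 CPM without, most of it from DPPA4, while NANOG and PRDM14 were under 0.1 CPM in every library. Endothelial markers, 3 of 3 above the filter, summed to 26.1 to 85.2 CPM with and 13.5 to 18.5 CPM without. Somite and presomitic markers, 7 of 7 above the filter, summed to 79.3 to 224 CPM with and 84.96 to 122 CPM without. Neural markers, 6 of 6 above the filter, summed to 453 to 511 CPM with and 488 to 653 CPM without, most of it from NES. Whether these differences in cell makeup have a part in the results below was not tested.

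The promoters of the members are shown first, because many of them hold a word of the E2F type. RefSeq promoter windows on GRCh38.p14, 250 bases before to 50 after an annotated start, were given for 38 of the 46 genes. They were searched on both strands for TTTCCCGC, TTTGGCGC, TTTGCCGC and TTTCGCGC, words that can overlap each other. At least 1 window of 20 of the 38 members held such a word (52.6%), against 1090 of 27305 genes with a window (3.99%) and 820 of the 13786 with a window that were also tested here (5.95%). Counted by window, the shares were 42.6% of 47 and 3.31% of 35116. In those 20 windows, 17 of the 27 matches began within 100 bases before the start. The lines below give the 120 bases before and 30 after the start, 5′ to 3′ on the gene's strand, with E2F-type words on either strand in capitals, for the 4 matching genes with the largest log2 fold change and for POLD2 and POLD1, whose fold changes were nearest 0 and whose windows held no such word.
E2F2, chr1:23531204-23531353, minus strand: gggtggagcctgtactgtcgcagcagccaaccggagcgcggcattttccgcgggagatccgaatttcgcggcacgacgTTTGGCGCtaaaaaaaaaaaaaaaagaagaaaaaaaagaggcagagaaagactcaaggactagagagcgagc
GINS3, chr16:58392351-58392500, plus strand: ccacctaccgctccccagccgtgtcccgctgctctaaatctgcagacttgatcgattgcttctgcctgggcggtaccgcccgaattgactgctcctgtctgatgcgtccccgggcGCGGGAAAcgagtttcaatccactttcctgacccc
CDC6, chr17:40287759-40287908, plus strand: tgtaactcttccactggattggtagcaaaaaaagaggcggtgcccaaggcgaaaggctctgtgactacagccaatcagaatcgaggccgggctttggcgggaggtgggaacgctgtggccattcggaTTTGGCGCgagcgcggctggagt
PCNA, chr20:5126593-5126742, minus strand: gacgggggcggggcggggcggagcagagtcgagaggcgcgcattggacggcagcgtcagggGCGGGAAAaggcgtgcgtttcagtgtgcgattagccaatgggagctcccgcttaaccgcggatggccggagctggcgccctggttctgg
POLD2, chr7:44123519-44123668, minus strand: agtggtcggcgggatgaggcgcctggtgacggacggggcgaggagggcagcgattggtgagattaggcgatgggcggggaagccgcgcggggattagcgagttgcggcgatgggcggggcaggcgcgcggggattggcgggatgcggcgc
POLD1, chr19:50384203-50384352, plus strand: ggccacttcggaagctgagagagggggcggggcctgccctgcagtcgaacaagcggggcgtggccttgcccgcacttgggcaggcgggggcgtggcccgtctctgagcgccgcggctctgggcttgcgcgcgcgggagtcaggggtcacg

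The word in E2F2 begins 42 bases before the start and that in PCNA 59 bases before it. In GINS3 it spans the start, from base -5, and in CDC6 it begins at base 8 after the start. A match is a description of these letters, not a binding site. The PCNA window shown is 1 of 2 listed for that gene, and the other held no E2F-type word.

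Withdrawal of glutamine was the comparison the study was built on. Most replication genes had higher RNA without glutamine, by modest amounts. The log2 fold change, without over with, was above 0 for 40 of 46 members and ranged from -0.14 (ORC3) to 1.02 (E2F2). Its median was 0.23, against 0.00 over all genes tested. For 26 members (56.5%) the lowest library without glutamine exceeded the highest with it, where 17.3% of all genes tested were so arranged. No member had all 3 libraries without glutamine below those with it, an arrangement held by 16.9% of all genes.

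No member was called by edgeR's quasi-likelihood test at an adjusted p under 0.05 with all 6 libraries, a threshold that 0.00442% of all genes passed in the higher direction. The smallest edgeR adjusted p among the members was 0.0679, for GINS1. At an unadjusted p under 0.05 there were 22 members, all higher, or 47.8% against 14.7% of all genes. At an edgeR adjusted p under 0.1, a threshold taken after the data were seen, there were 12 (26.1%, against 7.3% of all genes higher and 7.23% lower), all higher: ORC1, CDC6, GMNN, MCM10, GINS1, GINS3, PCNA, RFC3, POLA1, FEN1, CCNE2 and CDK2. DESeq2 also called 12 at an adjusted p under 0.05, 11 of them the same genes, against 7.54% of all genes higher and 6.44% lower. Without replicate 1 with glutamine, edgeR called 25 members (54.3%), all higher, where it called 22.3% of all genes higher and 19.0% lower. All 12 genes named above were among the 25, which is no independent support, because both fits use the same remaining libraries.

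**Figure D1:**
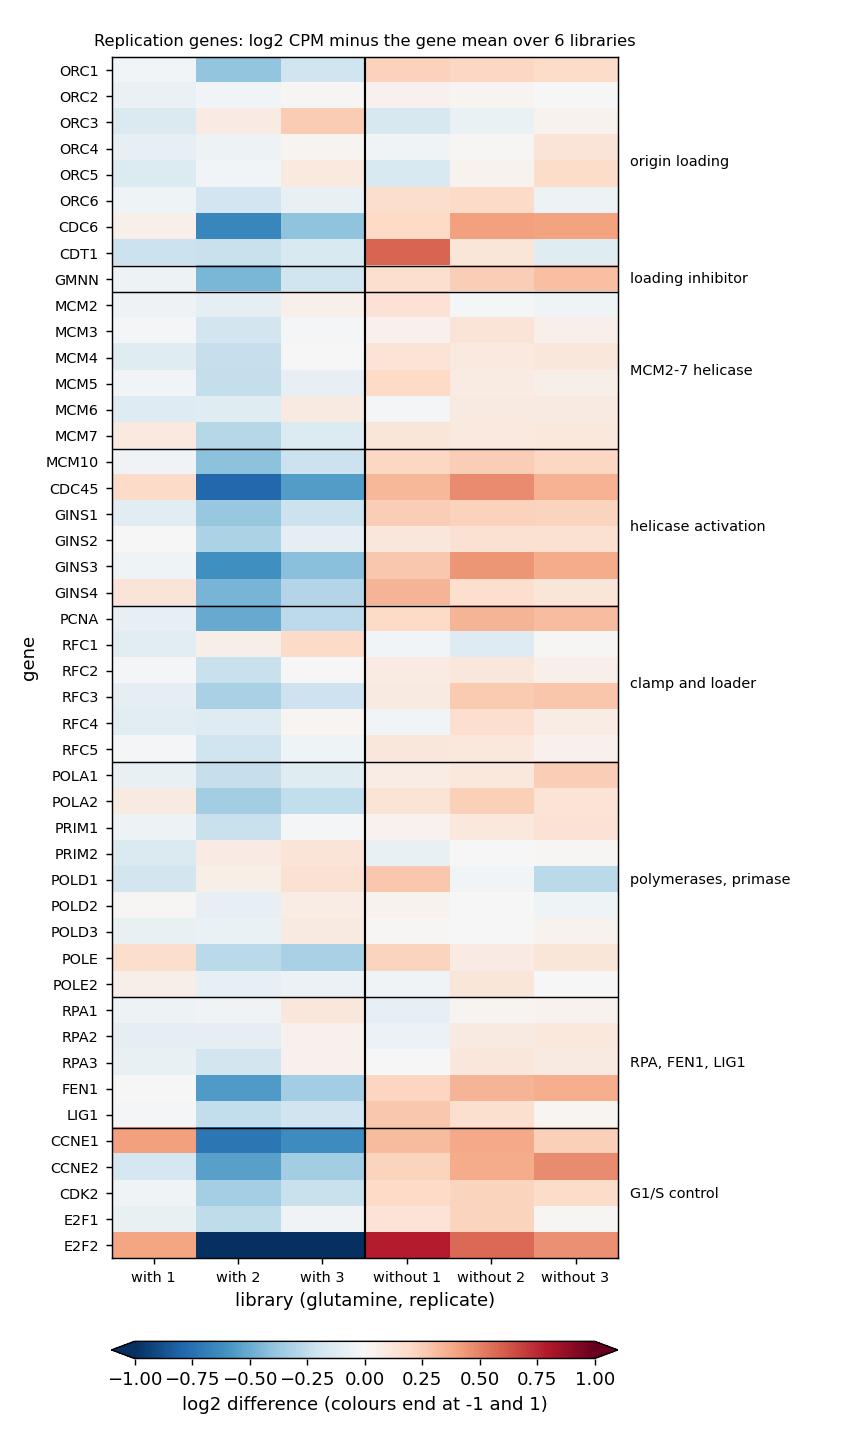
Log2 CPM of each of the 46 genes (rows, grouped by role) in each library (columns: replicates 1 to 3 with and without glutamine), minus the gene's mean over the 6 libraries; red is higher and blue lower. Replicate 2 with glutamine is the lowest of the 6 libraries for 34 genes, and the 3 libraries without glutamine lie mostly above the gene means.

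The libraries had an order that the group labels do not fully describe. The median over the members of log2 CPM minus the gene's mean was -0.05, -0.23 and -0.08 in replicates 1, 2 and 3 with glutamine, and 0.14, 0.12 and 0.11 without. Replicate 2 with glutamine was the lowest of all 6 libraries for 34 of 46 members, against 21.2% of all genes tested. Replicate 1 was the highest of the group with glutamine for 25 members, against 43.1% of all genes. It lay nearer the mean of the libraries without glutamine than that of the other pair in its own group for 24 members (52.2%), against 62.1% of all genes.

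Among the 8 genes that load the helicase onto origins, log2 fold changes ran from -0.14 to 0.64 and no gene was called with all 6 libraries. Levels by library are given in the order of replicates 1, 2 and 3. CDC6 (chr17:40287633-40304657 in GENCODE 29 on GRCh38), the ATPase that joins ORC to load the rings, read 64.8, 39.6 and 47.1 CPM given glutamine, against 71.4, 82.8 and 82.5 in its absence. The groups did not overlap, and replicate 1 was the highest with glutamine. Its log2 fold change was 0.64 (edgeR adjusted p 0.0829, SE 0.18), and 0.87 (edgeR adjusted p 0.000116, SE 0.10) without that library. CDT1, which brings the rings to ORC and CDC6, read 18.5, 18.5 and 19.3 CPM given glutamine, against 32.2, 23.4 and 19.8 in its absence. The 3 libraries with glutamine were close together, and 1 of the libraries without glutamine was far above the others. The log2 fold change of CDT1 was 0.42 (edgeR adjusted p 0.159, SE 0.17), and 0.205 without replicate 1 of the group without glutamine.

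ORC1, the subunit of ORC whose amount changes through the cycle, read 35.8, 27.6 and 31.7 CPM given glutamine, against 42.8, 41.9 and 41.4 in its absence. The 3 libraries without glutamine lay within a narrow band above the others, and the log2 fold change was 0.41 (edgeR adjusted p 0.0782, SE 0.10), or 0.50 (edgeR adjusted p 0.000947, SE 0.08) when replicate 1 with glutamine was left out. ORC2, ORC3, ORC4 and ORC5, the other large subunits of ORC, had log2 fold changes from -0.14 to 0.07, with groups that overlapped for all 4 and edgeR adjusted p from 0.435 to 0.805. ORC5 had the smallest difference of the loading genes, with readings of 30.5, 32.8 and 35.8 CPM given glutamine, against 30.1, 34.2 and 37.9 in its absence. ORC3 had the lowest log2 fold change, with means of 87.2 ± 11.9 CPM with and 79.4 ± 5.31 without (SD, n = 3). Its value was -0.23 (edgeR adjusted p 0.0508, SE 0.08) when replicate 1 with glutamine was left out. ORC6 was at 0.21 (edgeR adjusted p 0.173, SE 0.09), also with overlap. Per kilobase of exon, ORC3 stood at 23.6 ± 3.23 CPM (SD, n = 3) with glutamine, and the other 5 ORC genes between 8.87 and 11.6.

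GMNN, the inhibitor of loading, had higher values without glutamine, as did ORC1, CDC6 and CDT1, the 3 of the 8 loading genes without overlap. The median log2 fold change of the 8 loading genes was 0.14. GMNN read 51.5, 38.9 and 46.7 CPM given glutamine, against 60.1, 63.3 and 65.8 in its absence, with no overlap. The log2 fold change was 0.47 (edgeR adjusted p 0.0724, SE 0.11), beside 0.64 for CDC6 and 0.42 for CDT1. With replicate 1 of the group with glutamine left out, GMNN rose by 0.56 (edgeR adjusted p 0.000945, SE 0.09).

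The 6 subunits of the MCM2 to MCM7 ring had small differences, all above 0, with log2 fold changes from 0.07 to 0.23. MCM4 read 281, 261 and 306 CPM given glutamine, against 335, 326 and 331 in its absence. Its groups did not overlap, and its log2 fold change was 0.23 (edgeR adjusted p 0.112, SE 0.08). MCM5 read 114, 98.3 and 110 CPM given glutamine, against 133, 123 and 121 in its absence, also with no overlap, for a log2 fold change of 0.23 (edgeR adjusted p 0.127, SE 0.08). MCM2 read 264, 255 and 282 CPM given glutamine, against 302, 271 and 265 in its absence, where the groups overlapped, and had the smallest difference of the ring at 0.07. MCM3 and MCM7 did not overlap between groups, at 0.14 and 0.21, and MCM6 did, at 0.11. None of the 6 was at an edgeR adjusted p under 0.1 with all libraries. The fit without replicate 1 with glutamine called 3 higher (MCM4, MCM5 and MCM7), at edgeR adjusted p of 0.0433, 0.0188 and 0.0052. That fit called 22.3% of all genes higher. In the intact ring the subunits are present in equal number. Their RNA was not: per kilobase of exon, the level with glutamine was 99.0 ± 13.2 CPM for MCM7, 78.6 ± 5.31 for MCM3, 54.4 ± 2.86 for MCM2, 46.1 ± 4.06 for MCM6, 40.5 ± 3.27 for MCM4 and 14.6 ± 1.10 for MCM5 (SD, n = 3). MCM6 and MCM4 lay within their spread of each other. These lengths join all annotated exons of a gene and so overstate the length of the main transcript more for some genes than for others.

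The factors that switch the loaded helicase on showed larger differences than the ring itself, with a median log2 fold change of 0.45 over MCM10, CDC45 and GINS1 to GINS4 against 0.17 over MCM2 to MCM7. The difference between these medians was not tested. CDC45, which binds the ring to form the active helicase, read 28.9, 14.7 and 17.3 CPM given glutamine, against 32.0, 35.2 and 32.3 in its absence. The groups did not overlap, but replicate 1 with glutamine was closer to the libraries without glutamine than to its own group. The log2 fold change was 0.71 (edgeR adjusted p 0.112, SE 0.24), and 1.05 (edgeR adjusted p 2.38e-05, SE 0.09) without that library.

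Of the 4 GINS subunits, which bind beside CDC45, GINS3 differed most. GINS3 read 13.3, 9.01 and 10.3 CPM given glutamine, against 16.6, 18.7 and 17.8 in its absence, with a log2 fold change of 0.70 (edgeR adjusted p 0.0706, SE 0.15). GINS1 (chr20:25407727-25452628) read 68.9, 57.4 and 64.1 CPM given glutamine, against 88.3, 87.6 and 87.0 in its absence. The 3 libraries of GINS1 without glutamine were close together, at 87.7 ± 0.665 CPM (SD, n = 3), and the log2 fold change of 0.47 (SE 0.08) had the smallest adjusted p of the members. GINS2 had the smallest difference of the activators, with readings of 50.7, 40.8 and 47.6 CPM given glutamine, against 54.9, 56.5 and 56.5 in its absence, or 0.27 on the log2 scale. GINS4 was the 1 activator whose groups overlapped, at 0.40. MCM10, a partner of CDC45 and polymerase alpha, was at 51.7 ± 6.79 CPM with and 69.8 ± 1.24 without (SD, n = 3), or 0.43. All 6 activators were called higher in the fit without replicate 1 with glutamine, as were 22.3% of all genes.

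**Figure D2:**
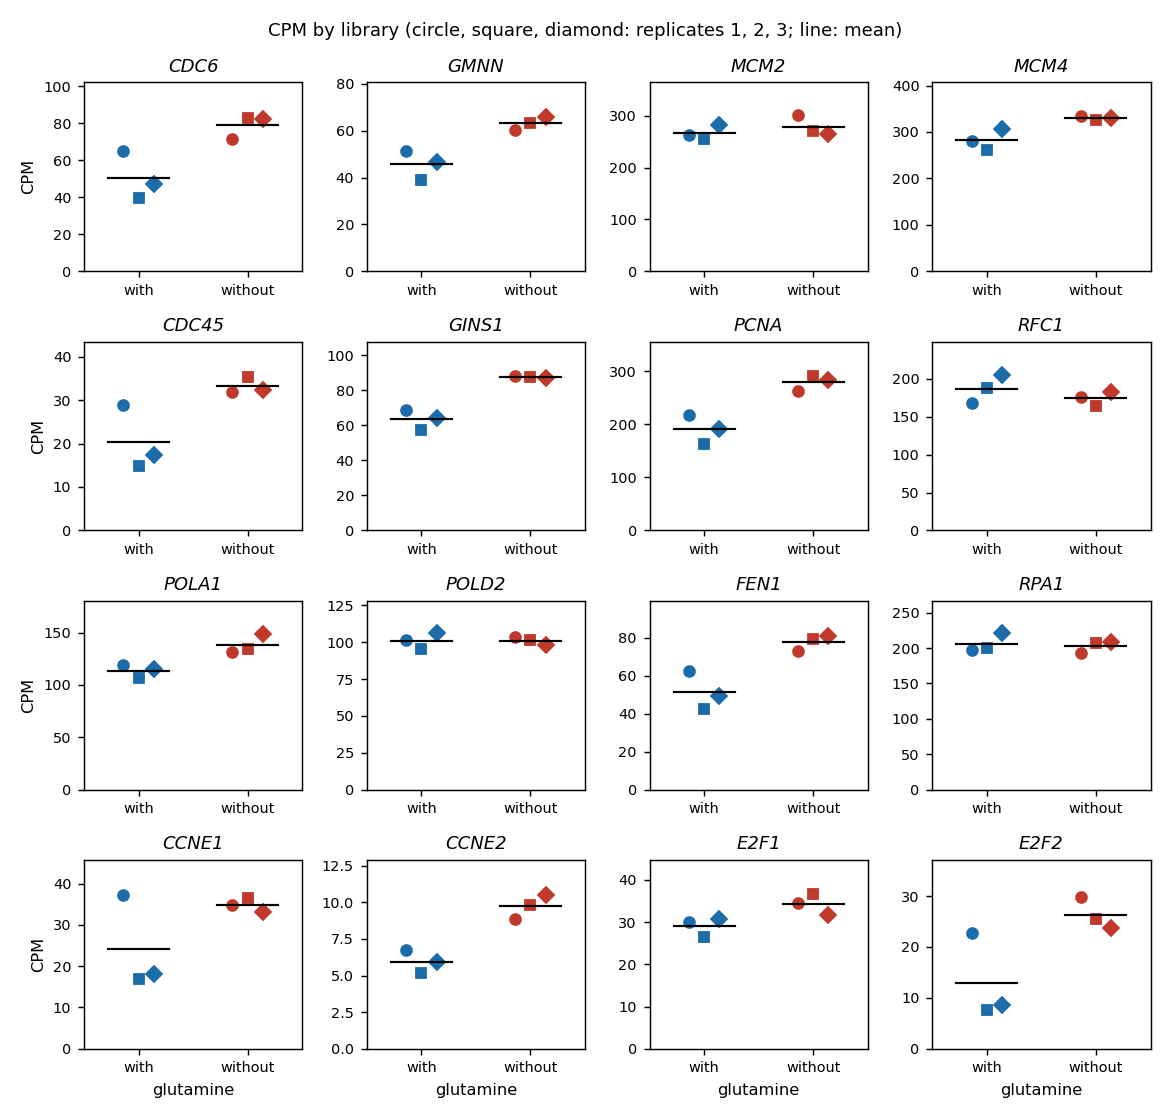
CPM of 16 genes in each library (circle, square and diamond for replicates 1, 2 and 3) with and without glutamine; the line is the group mean and the vertical axes begin at 0. In CDC45, CCNE1 and E2F2 the circle with glutamine lies far above the other pair of its group, while POLD2 and RPA1 have near-equal group means.

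PCNA, the ring that holds polymerases on DNA, read 217, 162 and 192 CPM given glutamine, against 263, 290 and 284 in its absence (gene at chr20:5114953-5126626). The libraries without glutamine all exceeded the others, and the log2 fold change was 0.55 (edgeR adjusted p 0.0689, SE 0.11). Per kilobase of exon it was the most abundant member, at 129 ± 18.6 CPM with and 190 ± 9.67 without (SD, n = 3). Of the clamp loader, RFC3 differed most, with readings of 65.0, 55.6 and 60.5 CPM given glutamine, against 74.1, 83.4 and 84.6 in its absence, for 0.42 (edgeR adjusted p 0.0703, SE 0.09). Without replicate 1 with glutamine PCNA rose by 0.66, RFC3 by 0.48 and RFC5 by 0.21 (edgeR adjusted p 0.000259, 0.00137 and 0.0497), and no other gene of this role was called. The remaining small subunits RFC2, RFC4 and RFC5 had log2 fold changes from 0.14 to 0.17. RFC1, the large subunit, had a value below 0: it read 168, 188 and 206 CPM given glutamine, against 177, 164 and 182 in its absence, or -0.10 (edgeR adjusted p 0.465, SE 0.09), with overlapping groups.

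Polymerases had the lowest median log2 fold change by role, 0.05 over 9 genes, with values from -0.05 to 0.33. Polymerase alpha starts each new strand with primase. Its catalytic subunit POLA1 read 119, 107 and 115 CPM given glutamine, against 132, 135 and 148 in its absence, for 0.28 (edgeR adjusted p 0.0842, SE 0.08). Its second subunit POLA2 read 54.8, 40.6 and 43.5 CPM given glutamine, against 56.7, 60.7 and 56.8 in its absence, for 0.33 (edgeR adjusted p 0.13, SE 0.12). Both were without overlap, though replicate 1 with glutamine of POLA2 lay just under the libraries without glutamine. With that library left out, POLA1 rose by 0.32 and POLA2 by 0.47 (edgeR adjusted p 0.00865 and 0.000809). The primase catalytic subunit PRIM1 was at 0.19 and its partner PRIM2, whose reads a near-identical copy may share, at -0.05.

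Polymerase delta, which copies the lagging strand, had near-equal group means in all 3 subunits listed, with log2 fold changes from -0.01 to 0.03. POLD2, the member nearest 0, read 102, 95.2 and 106 CPM given glutamine, against 104, 101 and 98.1 in its absence. POLD1, the catalytic subunit, read 65.6, 77.3 and 82.7 CPM given glutamine, against 89.8, 72.9 and 61.6 in its absence, a wide spread within each group around equal means. A difference of POLD1 as large as that of POLA1 is not shown to be absent, since its SE was 0.15 and that of POLD2 0.07. POLE, which copies the leading strand, read 162, 119 and 114 CPM given glutamine, against 168, 152 and 156 in its absence, so replicate 1 with glutamine lay among the libraries without it. The log2 fold change of POLE was 0.27 with all libraries and 0.45 (edgeR adjusted p 0.000865, SE 0.07) without that library. Its partner POLE2 was at 0.05.

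FEN1, the nuclease that trims Okazaki fragments, and LIG1, the ligase that joins them, were higher without glutamine in every library, while the single-strand binding proteins overlapped between groups. FEN1 read 62.8, 42.5 and 49.4 CPM given glutamine, against 72.9, 79.5 and 81.1 in its absence, for 0.59 (edgeR adjusted p 0.0724, SE 0.14). LIG1 read 90.9, 76.9 and 79.7 CPM given glutamine, against 110, 102 and 92.6 in its absence, for 0.30 (edgeR adjusted p 0.104, SE 0.10). Neither gene's groups overlapped, though the lowest library of LIG1 without glutamine lay close to the highest with it. RPA1, the large subunit of the single-strand binding complex, read 198, 199 and 221 CPM given glutamine, against 193, 208 and 209 in its absence, or -0.02. RPA2 and RPA3 were at 0.09 and 0.14, also with overlapping groups. Without replicate 1 with glutamine FEN1 rose by 0.76 and LIG1 by 0.38 (edgeR adjusted p 0.00012 and 0.0054), and no RPA gene was called.

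The G1/S regulators had the highest median of the roles, 0.53 over 5 genes, and the widest spread between libraries with glutamine. E2F2, an activating E2F factor, read 22.8, 7.54 and 8.59 CPM given glutamine, against 29.8, 25.5 and 23.7 in its absence. The groups did not overlap, yet replicate 1 with glutamine lay next to the libraries without glutamine. The log2 fold change was 1.02 (edgeR adjusted p 0.147, SE 0.40), and 1.71 (edgeR adjusted p 4.96e-06, SE 0.12) without that library. CCNE1, chosen for full values after they were seen, was similar: cyclin E1 read 37.1, 17.0 and 18.1 CPM given glutamine, against 34.9, 36.4 and 33.1 in its absence. Here replicate 1 with glutamine was the highest of all 6 libraries, and the log2 fold change moved from 0.53 to 0.99 when it was left out.

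CCNE2, the second cyclin E gene, was not arranged like this. It read 6.72, 5.20 and 5.94 CPM given glutamine, against 8.86, 9.81 and 10.5 in its absence, with replicate 1 on the side of its own group, and the log2 fold change was 0.71 (edgeR adjusted p 0.0682, SE 0.13). CCNE2 shares 1629 bases of annotated exon with INTS8 on the opposite strand, which was at 96.7 CPM on average, and the strand setting of the counting is not given in the sources used here. CDK2, the kinase that cyclin E activates, was at 64.2 ± 6.90 CPM with and 84.4 ± 1.05 without (SD, n = 3), or 0.39 (edgeR adjusted p 0.0718, SE 0.09). E2F1 had the smallest difference of the role, with readings of 29.9, 26.4 and 30.7 CPM given glutamine, against 34.6, 36.8 and 31.7 in its absence, or 0.24, with no overlap. All 5 regulators were called higher in the fit without replicate 1 with glutamine, as were 22.3% of all genes.

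**Figure D3:**
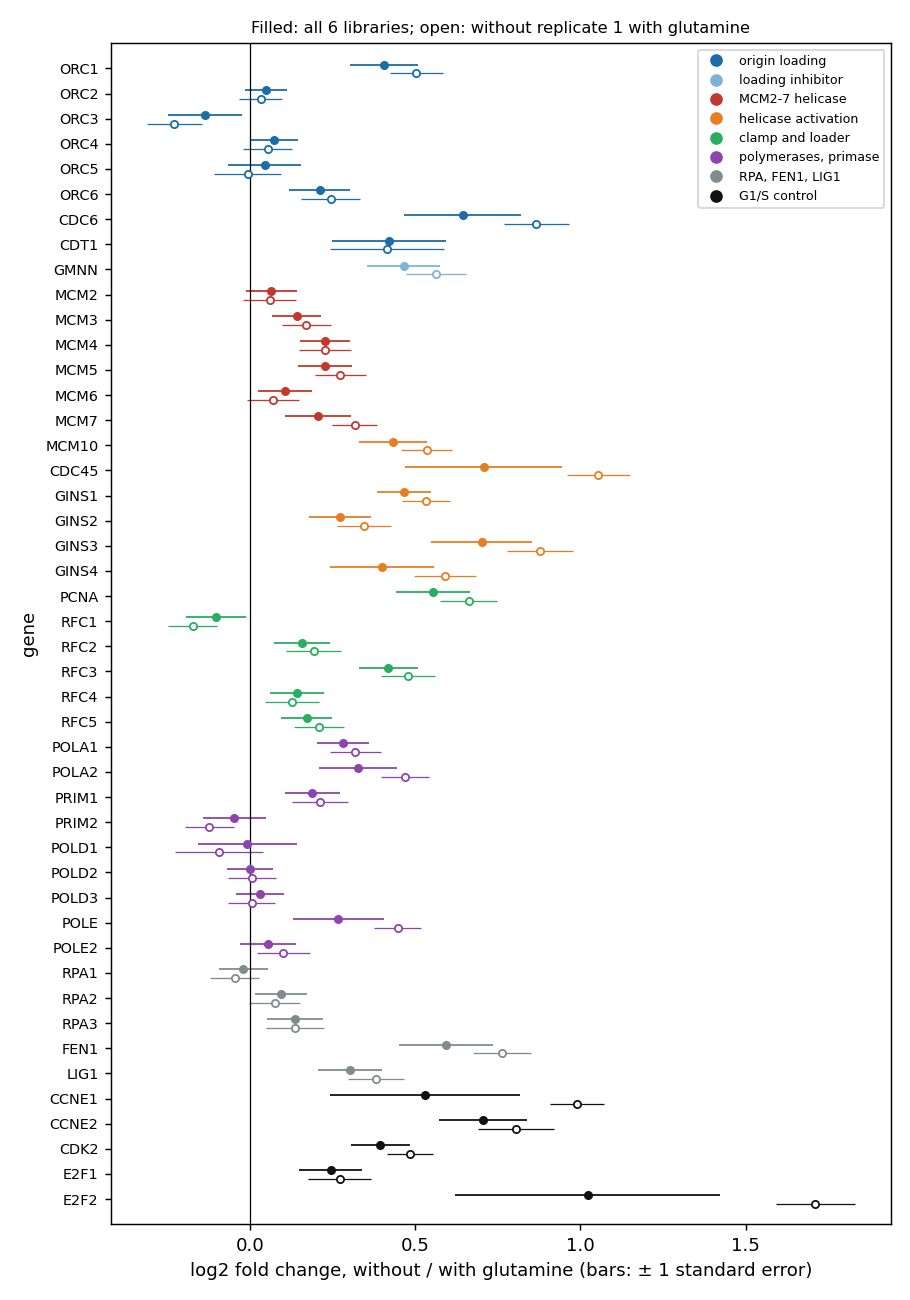
Log2 fold change without over with glutamine for the 46 genes, with bars of 1 standard error from edgeR; filled points use all 6 libraries and open points leave out replicate 1 with glutamine. Leaving it out moves CDC45, CCNE1 and E2F2 the furthest to the right and ORC3 to the left, from -0.14 to -0.23. ORC2, ORC4, ORC5, the POLD genes and the RPA genes stay nearer 0.

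Promoter words and differences between groups can be set side by side for the 38 genes with a window. An E2F-type word was present in 15 of the 22 members whose groups did not overlap (68.2%) and in 5 of the 16 whose groups did (31.2%). Exceptions ran both ways. All 4 MCM genes with a window (MCM2, MCM3, MCM6 and MCM7) held such a word, with MCM6 holding 4 matches, and their differences were small. ORC3, the member with the lowest log2 fold change (-0.14), and POLE2, at 0.05, held such a word too. In the other direction, CDC45, FEN1, MCM10, ORC1 and CCNE1 held none in these windows. The word CCAAT, the core of the NF-Y element, was found for 57.9% of the members and 39.7% of all genes. TTTGAA, a form of the CHR element found in mitotic genes, was found for 0 of 38 members and 18.2% of all genes. In a list of mitosis genes with 15 windowed genes, the corresponding counts were 3 with an E2F-type word, 13 with CCAAT and 10 with TTTGAA. For the other replication genes described below, 26 with a window, they were 10, 16 and 5. For the genes of deoxynucleotide supply, 8 with a window, they were 3, 5 and 2. E2F-type words were thus also frequent in these related lists.

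**Figure D4:**
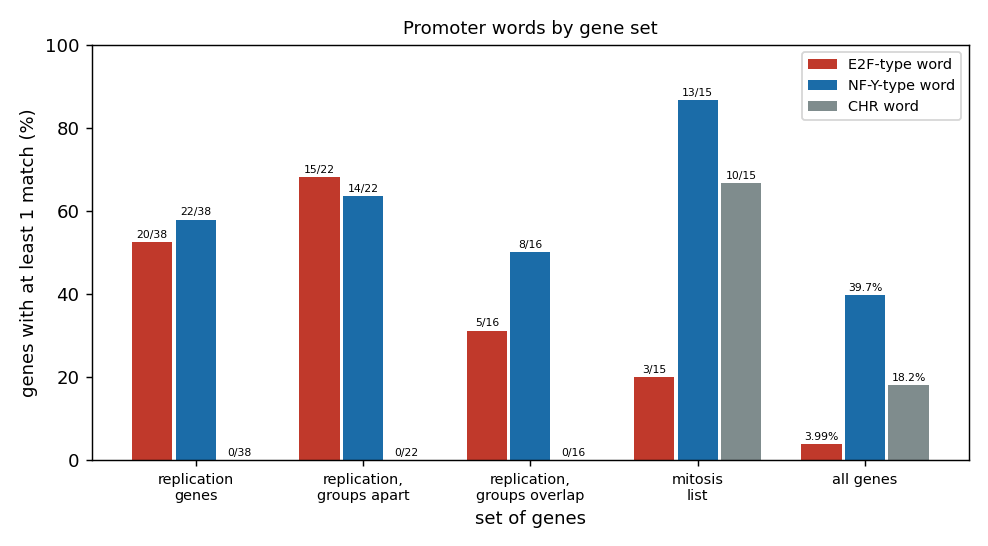
Share of genes (%) with at least 1 promoter match, for E2F-type words, the NF-Y-type word and the CHR word, in the replication genes, in those whose groups do and do not overlap, in mitosis genes and in all genes with a window; labels give matching genes over genes, or the share for all genes. E2F-type words reach 52.6% in the replication genes and 3.99% in all genes, and the CHR word is found in none of the replication genes and in 10 of 15 mitosis genes.

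Other genes of the replication machinery, a list of 32 apart from the members, had a median log2 fold change of 0.21, and 19 were higher without overlap and 0 lower (17.3% and 16.9% of all genes). The highest were ASF1B, a histone chaperone at the fork, at 0.73, RECQL4, a helicase needed to start replication, at 0.65, and DSCC1, part of an alternative clamp loader, at 0.54. The lowest were ATAD5, which unloads PCNA, at -0.28, RIF1, which delays origin firing, at -0.28, and MTBP, an origin-firing factor, at -0.01. In this list 11 genes had an edgeR adjusted p under 0.1, all higher (7.3% of all genes). Without replicate 1 with glutamine 15 were called higher and 2 lower, against 22.3% and 19.0% of all genes. The 2 were ATAD5 and RIF1 at -0.40 and -0.40 (edgeR adjusted p 0.00388 and 0.000967).

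Regulators around the G1/S step had values in both directions. Of 26 genes, 17 were higher and 1 lower with no overlap between groups, where all genes gave 17.3% and 16.9%, and the median was 0.23. Leaving out replicate 1 with glutamine, 14 were called higher and 3 lower (22.3% and 19.0% of all genes), with a median of 0.27. CDKN2A, an inhibitor of CDK4 and CDK6, had the largest log2 fold change at 2.16, from 0.0382 to 0.173 CPM with and 0.293 to 0.488 CPM without, a low level throughout. CCND1, cyclin D1, read 364, 88.6 and 96.4 CPM given glutamine, against 560, 467 and 412 in its absence, for 1.39 (edgeR adjusted p 0.142, SE 0.53), and rose by 2.38 (edgeR adjusted p 8.28e-07, SE 0.13) when replicate 1 with glutamine was left out. CDK6, its kinase partner, read 84.2, 45.1 and 40.6 CPM given glutamine, against 141, 146 and 143 in its absence, for 1.34 (edgeR adjusted p 0.0687, SE 0.26). In that smaller fit CDK6 rose by 1.74 and CDKN2A by 3.12 (edgeR adjusted p 2.7e-07 and 0.000634). CCND2, cyclin D2, was the gene lower without overlap, with readings of 545, 698 and 715 CPM given glutamine, against 504, 467 and 491 in its absence, for -0.42 (edgeR adjusted p 0.081, SE 0.11). The next lowest were CDKN1B, which inhibits cyclin E with CDK2, at -0.28 and E2F5, a repressor E2F, at -0.20, both with overlap. The 3 genes called lower in the fit without replicate 1 with glutamine were CCND2, CDKN1B and E2F5, at -0.53, -0.41 and -0.33 (edgeR adjusted p 0.000181, 0.00187 and 0.00276). CDKN1A, the inhibitor known as p21, read 11.3, 9.46 and 10.9 CPM given glutamine, against 19.0, 24.02 and 18.6 in its absence, so an inhibitor of CDK2 was higher together with CDK2 itself. Its log2 fold change was 0.96 (edgeR adjusted p 0.0679, SE 0.13), and 1.02 (edgeR adjusted p 0.000213, SE 0.13) in the smaller fit.

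Genes of the S-phase checkpoint and of fork repair, a list of 12, had a median of 0.33 with 8 higher and 0 lower without overlap (17.3% and 16.9% of all genes). With replicate 1 of the group with glutamine left out, 7 were called higher and 0 lower (22.3% and 19.0% of all genes). The median was then 0.40. H2AX, the histone variant marked at DNA breaks, read 62.9, 50.9 and 55.8 CPM given glutamine, against 156, 99.9 and 83.3 in its absence, for 1.002 (edgeR adjusted p 0.0706, SE 0.23), and rose by 1.09 (edgeR adjusted p 0.00332, SE 0.22) in that smaller fit. FANCI, which acts at stalled forks, was at 0.45. The kinase ATR, its partner ATRIP and the kinase CHEK2 were at -0.13, -0.02 and 0.09, with overlap in each.

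Genes of deoxynucleotide supply, a list of 10, had a median of 0.38, with 8 higher and 0 lower without overlap (17.3% and 16.9% of all genes). With replicate 1 of the group with glutamine left out, 9 were called higher and 0 lower (22.3% and 19.0% of all genes). The median was then 0.41. RRM2, the S-phase subunit of ribonucleotide reductase, read 125, 76.8 and 83.9 CPM given glutamine, against 169, 181 and 167 in its absence, for 0.86 (edgeR adjusted p 0.0689, SE 0.18), and rose by 1.10 (edgeR adjusted p 4.12e-06, SE 0.08) in the smaller fit. TK1, thymidine kinase, was at 0.85. The lowest were RRM2B, the subunit used outside S phase, at -0.08, RRM1 at 0.31 and DCK, deoxycytidine kinase, at 0.31. In the mitosis list of 18 genes the median was 0.43, with all 18 above 0 and 15 higher without overlap (17.3% of all genes). All 18 were called higher in the fit without replicate 1 with glutamine, as were 22.3% of all genes, and the median there was 0.55. The highest were CCNB1 at 0.61, CDK1 at 0.55 and CENPA at 0.54, and the lowest CENPF at 0.23, BUB1B at 0.32 and KIF20A at 0.34. These lists use the same libraries as the members and are not independent of them.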

How the data were processed

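Per the labels' protocols, stranded mRNA libraries were sequenced as single 50-nt ends. The submitters' processing notes name cutadapt, Trim Galore, FastQC, STAR 2.5.2b, DESeq2 and GRCh38; the counting program, annotation release and strand setting are not given in the sources used here. The authors deposited raw counts per Ensembl gene, and a second table whose values, read here as a signal, equal those counts divided by 1 DESeq2 size factor per library. Its 6 factors, 0.977 to 1.08, were recomputed from the raw counts. Column headings name days 0 and 9 although all samples are from day 9; the sample descriptions tie columns to groups, and every direction rests on that.

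Counts were tested with edgeR 4.0.16 in R 4.3.3: filterByExpr by group, TMM scaling, glmQLFit with legacy = FALSE and robust = FALSE, glmQLFTest, and Benjamini-Hochberg adjustment over all 22613 genes with a threshold of 0.05. The SE is the absolute log2 fold change over the root of the F statistic. CPM is counts per 1000000 and uses TMM-scaled library sizes. DESeq2 1.42.0 and limma 3.58.1 (voom) were alternatives, and the edgeR test was checked on simulated counts. At an adjusted p under 0.05 it recovered 10.4% of simulated log2 changes of size 0.5 and 82.1% of those of size 1. A lack of calls among small changes therefore does not show that they are absent. The simulated counts varied gene by gene, and no simulated library stood apart as replicate 1 with glutamine does. The recovered shares may therefore be too high for these data, where 1 of 22613 genes was called higher. Symbols came from the gene name table, and positions and exon lengths from GENCODE 29; 19 members share exon bases with another gene, 5 of them on the same strand. Promoters are from RefSeq.

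The members and lists were chosen with earlier results of these data known. All members are named by role; full values are given for the pair with the largest and the gene with the smallest absolute log2 fold change in each role, and other genes with values by library (ORC1, GINS1, POLD1, POLE and CCNE1, and CDKN1A) were picked after their values were seen. In other lists the 3 highest and 3 lowest genes are named, apart from some that are not reported here. Alternatives were DESeq2 size factors, upper quartile scaling, no low-count filter, the edgeR legacy setting, DESeq2, limma-voom, a replicate block, each library left out in turn, and an adjusted p threshold of 0.1 chosen after seeing the data.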

Additional observations from a re-analysis of the deposited data

How the results depend on the processing

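The count of called replication genes, 0 with all 6 libraries, was 12 under DESeq2 and 12 at an edgeR adjusted p under 0.1, the 1 alternative chosen after seeing the data. It stayed at 0 with DESeq2 size factors, upper quartile scaling, no filter, limma-voom, the edgeR legacy setting and the replicate block. Leaving out 1 library gave 0 to 25 called members, the 25 coming without replicate 1 with glutamine. Over all genes, 1 was called with all libraries, 3041 under DESeq2, 3285 at an adjusted p under 0.1, 2 with no filter, and 0 under the legacy setting, limma-voom, upper quartile scaling and the replicate block. Leaving out 1 library gave 0 to 9573. The cause was not tested. The median log2 fold change of the members ran from 0.183 to 0.233 over scalings, filter and tools and from 0.162 to 0.273 with 1 library left out. Members higher without overlap numbered 22 to 28 over the scalings and 26 to 34 with 1 library left out. Without replicate 1 with glutamine 31 members were higher without overlap and 3 lower. Over all genes tested the shares in that setting were 32.3% higher and 31.2% lower, against 17.3% and 16.9% with all 6 libraries.

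Of 598 values of single members under the alternatives, 542 were alike in sign and call, 37 became called and 19 changed sign. The sign changes were in 6 genes near 0. With 1 library left out ORC5 ran from -0.042 to 0.131 and PRIM2 from -0.123 to 0.006. POLD1 ran from -0.156 to 0.111 and POLD2 from -0.051 to 0.035 with 1 library left out, and POLD2 was 0.004 under DESeq2, 0.001 under limma-voom, 0.006 with no filter and 0.0 with the replicate block. POLD3 was -0.013 under upper quartile scaling and ran from -0.003 to 0.085 with 1 library left out, and RPA1 from -0.052 to 0.031. Under upper quartile scaling the median over all genes shifted by -0.0444, and its split at an unadjusted p under 0.05 was 2628 higher and 4295 lower, against 3334 and 3384; limma-voom gave 3899 and 3148.

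No pairing by replicate number was seen: deviations from the group means correlated at -0.0205, 8.77e-05 and 0.0281, and 1 of 6 libraries correlated best with its own number. With 3 libraries per group, and replicate 1 with glutamine apart from its group, this check cannot show that the libraries were unpaired. With the replicate block the median of the members was 0.229.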
